A study of Mus musculus with 16 samples.

Results

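The genes described here are direct transcriptional targets of p53, measured in sciatic nerves that lacked *Becn1* in Schwann cells (SCs) and in control nerves. The set was a list of 10 named genes: *Cdkn1a*, *Mdm2*, *Ccng1*, *Bax*, *Bbc3*, *Phlda3*, *Eda2r*, *Trp53inp1*, *Gdf15* and *Zmat3*. Of these, 8 had a transcript cluster (the probe set of 1 gene) under their symbol, 1 cluster each, among the 19505 genes tested; *Bax* and *Gdf15* were not analysed here, nor was *Trp53* itself. The list was chosen by name and not by the values of these arrays, but with earlier results of the same arrays known.

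Each of the 16 Clariom S arrays held RNA of whole mouse sciatic nerve, and its values were robust multiarray average (RMA) values on the log2 scale. There were 4 arrays in each of 4 groups: control at P10, *Becn1* cKO at P10, control at 2 months and *Becn1* cKO at 2 months. *Becn1* cKO mice carried the floxed *Becn1* allele on both chromosomes and a Cre recombinase transgene active in the SC lineage. Control mice, labelled *Becn1* wild-type, had floxed *Becn1* on at least a single chromosome but no Cre, and mice of both sexes were used, as the methods state; whether a sample was pooled from several animals is not given in the sources used here. The nerve also holds fibroblasts, endothelial cells, immune cells and axons without Cre, and in such bulk RNA fewer cells of a type and less RNA per cell cannot be told apart.

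p53 is a transcription factor that is kept low by MDM2, which marks it for degradation, and that accumulates after DNA damage and other stress. It binds DNA as a tetramer to pairs of a half-site. Its targets fall into those that stop the cell cycle, those that feed back on p53, those that promote cell death and those that act in repair, metabolism and autophagy. Beclin 1, the product of *Becn1*, is a core component of the lipid kinase complex that starts autophagosomes and serves endosomal traffic.

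The promoters of the measured members are shown first because some hold the half-site by which p53 contacts DNA and others do not. RefSeq start sites of the mouse build GRCm38.p6 gave 9 windows of 300 bases, from 250 bases before to 50 bases after the start, for 6 of the 8 measured members; *Trp53inp1* and *Zmat3* had no entry. The p53 half-site consensus, a run of 10 bases that reads the same on both strands, was searched for by script with no mismatch. It occurred in 3 of the 9 windows, 1 each of *Cdkn1a*, *Ccng1* and *Mdm2*, and in 8.4% of all 32851 promoter windows of the build. The windows run 5′ to 3′ on the strand of the gene, with matches to the half-site consensus in capitals; the *Eda2r* window is shown as one without a match.
*Cdkn1a*, upstream start site, chr17:29090729-29091028, plus strand: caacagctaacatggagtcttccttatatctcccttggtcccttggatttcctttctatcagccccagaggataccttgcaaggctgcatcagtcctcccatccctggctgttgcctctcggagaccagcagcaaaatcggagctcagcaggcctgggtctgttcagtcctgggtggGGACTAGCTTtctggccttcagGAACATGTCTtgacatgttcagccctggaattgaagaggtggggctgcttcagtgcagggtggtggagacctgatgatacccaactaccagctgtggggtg
*Ccng1*, chr11:40755237-40755536, minus strand: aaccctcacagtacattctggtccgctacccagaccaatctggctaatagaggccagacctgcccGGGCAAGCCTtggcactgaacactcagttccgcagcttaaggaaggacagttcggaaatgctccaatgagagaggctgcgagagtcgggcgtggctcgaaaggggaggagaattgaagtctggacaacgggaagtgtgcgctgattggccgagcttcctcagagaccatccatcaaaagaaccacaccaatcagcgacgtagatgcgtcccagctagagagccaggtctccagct
*Mdm2*, chr10:117710709-117711008, minus strand: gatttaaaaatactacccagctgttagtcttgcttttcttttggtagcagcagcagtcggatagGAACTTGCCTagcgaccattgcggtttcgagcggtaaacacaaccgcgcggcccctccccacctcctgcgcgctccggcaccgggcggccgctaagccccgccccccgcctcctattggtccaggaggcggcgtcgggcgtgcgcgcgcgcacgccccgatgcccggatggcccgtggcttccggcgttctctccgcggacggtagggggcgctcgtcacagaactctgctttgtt
*Eda2r*, chrX:97377160-97377459, minus strand: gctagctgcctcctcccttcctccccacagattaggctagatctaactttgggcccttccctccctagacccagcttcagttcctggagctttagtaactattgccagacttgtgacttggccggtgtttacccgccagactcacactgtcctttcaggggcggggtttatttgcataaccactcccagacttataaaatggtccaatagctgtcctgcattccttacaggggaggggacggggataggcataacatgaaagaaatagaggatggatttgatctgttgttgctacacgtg

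In the *Cdkn1a* window the half-sites began 73 and 51 bases before the start site, and the one at 51 bases was followed back to back by a run with 1 mismatch to the consensus, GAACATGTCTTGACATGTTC as a pair. In *Ccng1* the pair was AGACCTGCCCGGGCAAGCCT, again with 1 mismatch, and its perfect half-site began 185 bases before the start. Such pairs with at most 1 mismatch were found in 22 of the 32851 windows, or 0.067%. The *Mdm2* window held a single half-site, 186 bases before the start. The other *Cdkn1a* start site lay 2790 bases downstream and its window had no match, nor had those of *Bbc3*, *Phlda3* and *Eda2r*. A match only describes these letters; binding of p53 was not measured, and the window says nothing of sites elsewhere in a gene.

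The labels were checked on *Becn1*, which was 8.61 ± 0.09 in control and 8.26 ± 0.11 in *Becn1* cKO nerves at P10 (SD, n = 4) and 8.45 ± 0.07 against 8.19 ± 0.06 at 2 months, with no overlap of arrays at either age (log2 change -0.35, adjusted p = 0.0397, and -0.26, adjusted p = 0.0312, limma). Where its probes lie relative to the floxed exons is not given in the sources used here. SC genes were present in every array: of the 13 SC markers listed 10 were measured, and their mean was between 9.47 and 10.45. At P10 this mean was 10.12 to 10.45 in control and 10.18 to 10.30 in *Becn1* cKO arrays. At 2 months it was 9.81 to 10.13 and 9.47 to 9.63, with no overlap. Of the 10 markers, 3 were higher and 4 lower in *Becn1* cKO nerves at P10 (70% called, beside 12.9% of all genes). At 2 months 4 were higher and 5 lower (90%, beside 34%). The higher ones were *Erbb3* (0.82), *Ncam1* (0.64), *Foxd3* (0.59) and *Sox10* (0.56). The lower ones were *Mbp* (-2.33), *Egr2* (-1.63), *Pmp22* (-1.14), *S100b* (-0.81) and *Cdh19* (-0.55). The lower mean at 2 months thus joined markers that moved either way and does not measure the number of SCs. Pairs of arrays correlated at 0.975 to 0.994 within groups and at 0.929 to 0.977 between groups. Skeletal muscle genes varied strongly among P10 nerves, with a mean over 14 genes of 9.70, 6.90, 8.87 and 11.90 in the 4 control arrays and 7.93, 9.38, 6.09 and 9.37 in the *Becn1* cKO arrays. The labels do not give the sex of a sample, but 3 Y-linked genes were high in replicates 1 and 2 and low in replicates 3 and 4 of every group, so that the sexes were balanced between the groups.

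To find out whether the target genes differed between genotypes, control and *Becn1* cKO nerves were compared at each age. At P10, 2 of the 8 measured members were higher in *Becn1* cKO nerves (*Eda2r*, *Trp53inp1*), 2 were lower (*Cdkn1a*, *Phlda3*) and 4 did not pass the test, while 12.9% of all genes passed it, 5.48% as higher and 7.44% as lower (limma, Benjamini-Hochberg adjusted p under 0.05 over all genes). At 2 months, 4 were higher (*Eda2r*, *Trp53inp1*, *Ccng1*, *Zmat3*), 1 was lower (*Cdkn1a*) and 3 did not pass, against 34% of all genes, 18.5% as higher and 15.5% as lower. The arrays of the genotypes did not overlap for 2 of the 8 members at P10 and for 6 at 2 months, beside 16.9% and 33.4% of all genes. The median log2 change of the 8 was 0.02 at P10 and 0.38 at 2 months, beside 0.00 and -0.02 over all genes. The members therefore had no common direction at P10: they ranged from -1.77 to 0.78. At 2 months they ranged from -1.39 to 1.37.

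**Figure D1:**
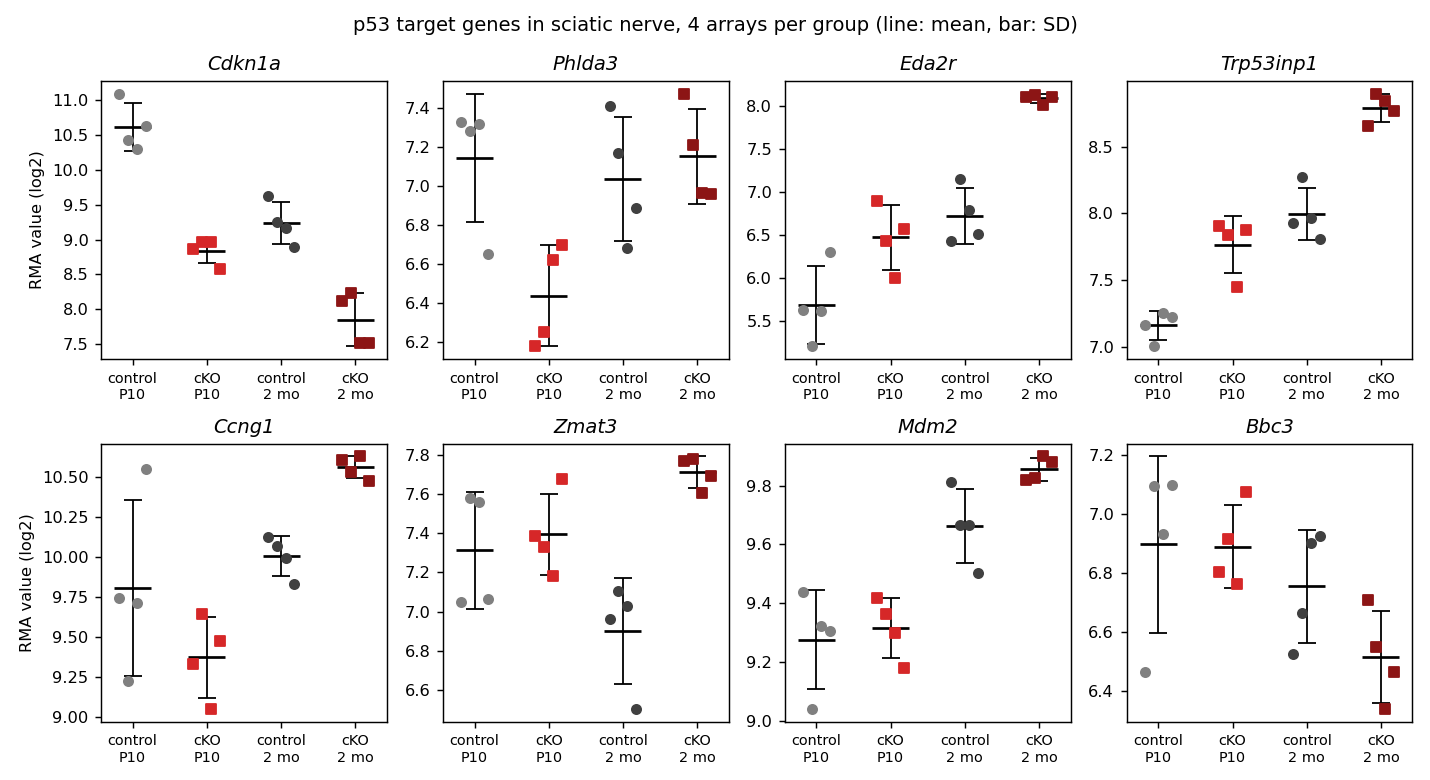
RMA values (log2) of the 8 measured p53 target genes in each of the 16 arrays, with 1 point per array; horizontal lines are group means and bars SDs of 4 arrays. *Cdkn1a* lay lower in *Becn1* cKO nerves at both ages, *Trp53inp1* lay higher at both, and *Eda2r*, *Ccng1* and *Zmat3* lay apart from their controls at 2 months.

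*Cdkn1a* encodes p21, which binds and inhibits cyclin-dependent kinases and is the main effector of the p53 arrest in G1. Control nerves at P10 read 11.09, 10.42, 10.30 and 10.63, and *Becn1* cKO nerves read 8.86, 8.96, 8.96 and 8.58. At 2 months controls read 9.62, 9.26, 9.17 and 8.90 and *Becn1* cKO nerves 8.13, 8.23, 7.52 and 7.52. Every *Becn1* cKO array lay below every control array of its age. The transcript was thus 3.41-fold lower at P10 (log2 change -1.77, SE 0.16, adjusted p = 2.48e-06, limma) and 2.61-fold lower at 2 months (-1.39, SE 0.18, adjusted p = 1.88e-05). The effects at the 2 ages differed by 0.38 (95% confidence interval -0.16 to 0.92, adjusted p = 0.388). *Cdkn1a* also fell with age, by 1.37 in control nerves (adjusted p = 6.64e-06) and by 0.99 in *Becn1* cKO nerves (adjusted p = 0.000239). The order of levels was control at P10, control at 2 months, *Becn1* cKO at P10 and *Becn1* cKO at 2 months, and the arrays of the middle pair overlapped.

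*Phlda3* encodes a pleckstrin homology domain protein that competes with Akt for membrane lipids and so represses Akt. At P10 control nerves read 7.33, 7.28, 7.32 and 6.65 and *Becn1* cKO nerves 6.18, 6.25, 6.62 and 6.70. At 2 months the values were 7.41, 7.17, 6.68 and 6.89 in controls and 7.47, 7.21, 6.97 and 6.96 in *Becn1* cKO nerves. The genotypes overlapped at both ages, at P10 through control replicate 4, whose value of 6.65 lay among the *Becn1* cKO arrays and whose muscle mean was the highest of all arrays. The P10 change was -0.71 (SE 0.18, adjusted p = 0.0139, limma); it was -0.87 without that array, and missed the threshold without *Becn1* cKO replicate 1 (adjusted p = 0.0511) or replicate 2 (adjusted p = 0.0510). At 2 months the change was 0.11 (95% confidence interval -0.23 to 0.46, adjusted p = 0.641).

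*Eda2r* is an X-linked gene for a receptor of the tumour necrosis factor receptor family that binds ectodysplasin A2. Its P10 values were 5.62, 5.20, 5.62 and 6.30 in controls and 6.89, 6.42, 5.99 and 6.57 in *Becn1* cKO nerves. Its 2-month values were 6.43, 7.15, 6.79 and 6.50 in controls and 8.10, 8.13, 8.01 and 8.11 in *Becn1* cKO nerves. At P10 the highest control array, again replicate 4, lay above the lowest *Becn1* cKO array; at 2 months the groups were apart, and the *Becn1* cKO arrays stood close together (8.09 ± 0.05, SD, n = 4). The increase was 1.72-fold at P10 (log2 change 0.78, SE 0.23, adjusted p = 0.0331, limma) and 2.58-fold at 2 months (1.37, SE 0.14, adjusted p = 2.42e-06). The P10 call was lost in 6 of 8 fits that each left out 1 array, namely without control replicate 1, 2 or 3 or *Becn1* cKO replicate 1, 2 or 4, with adjusted p up to 0.114; without control replicate 4 the change was 0.99 (adjusted p = 0.00303). Among the arrays with high Y-linked genes the P10 difference was 1.24 and among those with low Y-linked genes 0.32, with 2 arrays a side and no test. The low arrays included control replicate 4. At 2 months the differences were 1.33 and 1.41. Such a split at P10 was not particular to this X-linked gene: *Phlda3* read -1.09 and -0.33 and *Ccng1* 0.00 and -0.87. *Cdkn1a* read -1.84 and -1.69.

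*Trp53inp1* encodes a stress-induced nuclear protein that acts with p53 and also takes part in autophagy. At P10 controls read 7.16, 7.00, 7.26 and 7.22 and *Becn1* cKO nerves 7.90, 7.84, 7.45 and 7.87. At 2 months controls read 7.93, 8.27, 7.97 and 7.81 and *Becn1* cKO nerves 8.65, 8.90, 8.84 and 8.77. It was the only measured member that lay higher in *Becn1* cKO nerves with no overlap of arrays at both ages, although *Becn1* cKO replicate 3 stood below the others at P10. The change was 0.60 at P10 (SE 0.13, adjusted p = 0.00504, limma) and 0.80 at 2 months (SE 0.11, adjusted p = 3.89e-05), or 1.52-fold and 1.74-fold, and the effects differed by 0.19 (95% confidence interval -0.16 to 0.54, adjusted p = 0.531).

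*Ccng1* encodes cyclin G1, which recruits a phosphatase to MDM2. At P10 controls read 9.75, 9.22, 9.71 and 10.55 and *Becn1* cKO nerves 9.33, 9.65, 9.05 and 9.47, with overlap. At 2 months controls read 10.12, 10.07, 10.00 and 9.84 and *Becn1* cKO nerves 10.61, 10.53, 10.63 and 10.48, with none. The P10 change was -0.43 (95% confidence interval -0.90 to 0.03, adjusted p = 0.251, limma) and -0.19 without control replicate 4, the array richest in muscle RNA. At 2 months *Ccng1* was 1.47-fold higher in *Becn1* cKO nerves (log2 change 0.56, SE 0.09, adjusted p = 0.000145).

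*Zmat3* encodes a zinc-finger protein that binds RNA and regulates splicing and stability of transcripts. At P10 controls read 7.05, 7.58, 7.56 and 7.06 and *Becn1* cKO nerves 7.39, 7.33, 7.18 and 7.68. At 2 months the values were 6.96, 7.11, 7.03 and 6.50 in controls and 7.77, 7.78, 7.61 and 7.69 in *Becn1* cKO nerves. The genotypes were intermixed at P10 (log2 change 0.08, 95% confidence interval -0.25 to 0.42, adjusted p = 0.828, limma) and apart at 2 months, where *Zmat3* was 1.75-fold higher in *Becn1* cKO nerves (0.81, SE 0.13, adjusted p = 0.000172).

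*Mdm2*, the E3 ligase that closes the feedback on p53, did not pass the test at either age. Controls read 9.44, 9.04, 9.32 and 9.30 at P10 and 9.81, 9.67, 9.67 and 9.50 at 2 months. *Becn1* cKO nerves read 9.42, 9.36, 9.30 and 9.18 at P10 and 9.82, 9.83, 9.90 and 9.88 at 2 months. The difference was 0.04 at P10 (95% confidence interval -0.20 to 0.28, adjusted p = 0.890, limma). At 2 months it was 0.19 (0.01 to 0.38, adjusted p = 0.101) with no overlap, the closest arrays being 9.81 and 9.82, and it passed without control replicate 1 (0.24, adjusted p = 0.0317).

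*Bbc3* encodes PUMA, a BH3-only protein that triggers apoptosis at mitochondria. It read 6.46, 7.09, 6.93 and 7.10 in P10 controls and 6.80, 6.91, 6.76 and 7.07 in P10 *Becn1* cKO nerves. At 2 months controls read 6.53, 6.66, 6.90 and 6.92 and *Becn1* cKO nerves 6.71, 6.55, 6.34 and 6.47. Every pair of neighbouring groups overlapped in the order of levels. The change was -0.01 at P10 (95% confidence interval -0.33 to 0.32, adjusted p = 0.986, limma) and -0.24 at 2 months (-0.51 to 0.04, adjusted p = 0.182).

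**Figure D2:**
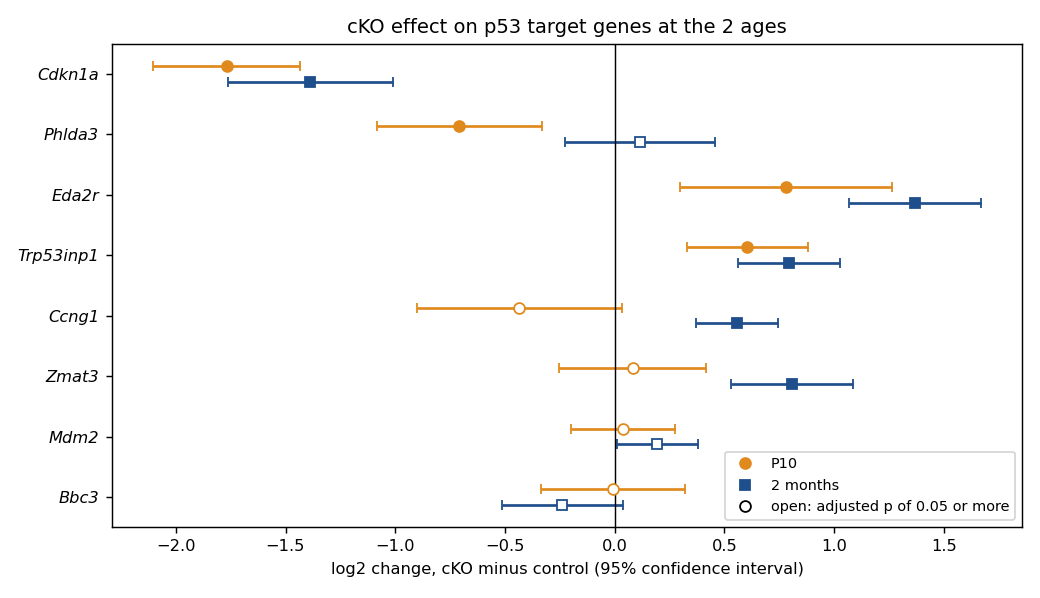
Log2 change of each measured p53 target gene between *Becn1* cKO and control nerves at P10 (circles) and at 2 months (squares), 4 arrays per group; bars are 95% confidence intervals and open symbols have an adjusted p of 0.05 or more (limma). *Cdkn1a* lay below 0 and *Eda2r* and *Trp53inp1* above 0 at both ages, and *Ccng1* and *Phlda3* had P10 values below 0 and 2-month values above 0.

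Whether the effect of the genotype changed between P10 and 2 months was tested as a difference of the changes over all 16 arrays. It passed for 3 of the 8 members, all with the higher value at 2 months, while 12.3% of all genes passed, 7.69% in that direction and 4.59% in the other. The difference was 0.99 for *Ccng1* (SE 0.26, adjusted p = 0.0143, limma), 0.82 for *Phlda3* (SE 0.25, adjusted p = 0.0372) and 0.73 for *Zmat3* (SE 0.21, adjusted p = 0.0278). *Phlda3* had passed the test between genotypes at P10, and *Ccng1* and *Zmat3* at 2 months. The *Phlda3* and *Zmat3* differences were near the threshold, as 9 and 8 of the 16 fits that each left out 1 array had an adjusted p above it, up to 0.0881 and 0.0628. For *Eda2r* the difference was 0.59 (95% confidence interval -0.01 to 1.19, adjusted p = 0.207).

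With age, 3 of the 8 members rose in control nerves and 2 fell, against 29% of all genes called (13.8% higher and 15.2% lower). In *Becn1* cKO nerves 5 rose and 1 fell, against 29.9% (16.1% higher and 13.8% lower). *Eda2r* rose by 1.03 in control (adjusted p = 0.000513, limma) and by 1.62 in *Becn1* cKO nerves (adjusted p = 2.74e-06). *Trp53inp1* rose by 0.83 (adjusted p = 1.44e-05) and by 1.02 (adjusted p = 9.16e-07). *Mdm2* rose by 0.39 (adjusted p = 0.00383) and by 0.54 (adjusted p = 0.000156). These 3 genes thus rose with age in both genotypes. Over the same ages 11 of 14 macrophage genes rose in control and 13 of 14 in *Becn1* cKO nerves. Skeletal muscle genes fell, 12 of 14 in control (median change -3.11) and 6 of 14 in *Becn1* cKO nerves (median -2.05), as did 9 of 9 and 5 of 9 endothelial genes. The part of these cells in the changes with age was not tested. *Ccng1* and *Phlda3* passed in *Becn1* cKO nerves (1.19, adjusted p = 3.12e-05, and 0.72, adjusted p = 0.00396) and had values of 0.20 (adjusted p = 0.481) and -0.11 (adjusted p = 0.719) in control nerves. The control value of *Ccng1* became 0.44 (adjusted p = 0.0163) without control replicate 4 at P10. *Zmat3* fell by 0.41 in control nerves (adjusted p = 0.0436), a call lost without control replicate 2 or 3 at P10 or control replicate 1 or 4 at 2 months. In *Becn1* cKO nerves its change with age was 0.32 (adjusted p = 0.123). *Bbc3* read -0.14 (adjusted p = 0.522) in control and -0.37 (adjusted p = 0.0546) in *Becn1* cKO nerves, the latter passing without *Becn1* cKO replicate 1 at 2 months (-0.44, adjusted p = 0.0412).

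Across the 16 arrays *Eda2r* and *Trp53inp1* had nearly the same profile (Pearson r = 0.973): of all genes tested, *Trp53inp1* was the one most like *Eda2r*. *Cdkn1a* ran opposite to both (r = -0.85 and -0.89). The gene most like *Cdkn1a* was *Plekhg3* (r = 0.985). The others were *Clk4* for *Mdm2* (0.970), *Plbd1* for *Ccng1* (0.897), *Slc27a3* for *Bbc3* (0.932), *Xbp1* for *Phlda3* (0.919), *C330007P06Rik* for *Trp53inp1* (0.979) and *Ciapin1* for *Zmat3* (0.920). These values describe 16 arrays that share 4 groups, and any genes that follow the groups correlate.

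The 2-month rise came together with markers of another cell type. The mean over 14 macrophage genes was 7.58 to 7.99 in control and 9.05 to 9.29 in *Becn1* cKO nerves at 2 months, where 12 of the 14 were higher and 1 was lower (*Cd163*). At P10 it was 6.84 to 7.18 and 7.09 to 7.49, and none of the 14 passed the test. At 2 months 8 of 12 T and NK cell genes were called, all higher. Of the neutrophil genes 4 of 10 were called (40%), and of the B and plasma cell genes 3 of 9 (33.3%), all higher. Over all genes 34% were called at 2 months, 18.5% as higher. *Fyb* and *Cd180*, genes of immune cells, were next most like *Eda2r* after *Trp53inp1* (r = 0.959 and 0.957). After the most similar gene, *Trp53inp1* had *Eda2r* (0.973) and *Snx10* (0.968) next. *Ccng1* had *Usp18* and *Fxr1* (both 0.876), and *Zmat3* had *Slc44a2* and *Abr* (both 0.904). The part of these cells in the 2-month values of *Eda2r*, *Trp53inp1*, *Ccng1* and *Zmat3* was not tested. The median change of the macrophage genes at P10 was 0.20.

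Markers of endothelial cells and fibroblasts were lower beside the falls of *Cdkn1a* and *Phlda3*. At P10, 8 of 9 endothelial genes were lower in *Becn1* cKO nerves (median change -0.73), with a mean of 8.40 to 8.79 in control and 7.66 to 7.91 in *Becn1* cKO arrays. Of 8 fibroblast genes 4 were lower at P10 (median -0.48), with a mean of 10.62 to 10.96 in control and 10.13 to 10.61 in *Becn1* cKO arrays. Neither list had a gene called higher at that age, while over all genes 5.48% were called higher and 7.44% lower. At 2 months, beside the lower *Cdkn1a*, 4 of 9 endothelial genes were lower (median -0.29), and of the fibroblast genes 6 were lower and 1 was higher (median -0.77). Over all genes 18.5% were called higher and 15.5% lower at 2 months. The part of endothelial cells, fibroblasts and SCs in the values of *Cdkn1a* and *Phlda3* was not tested.

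**Figure D3:**
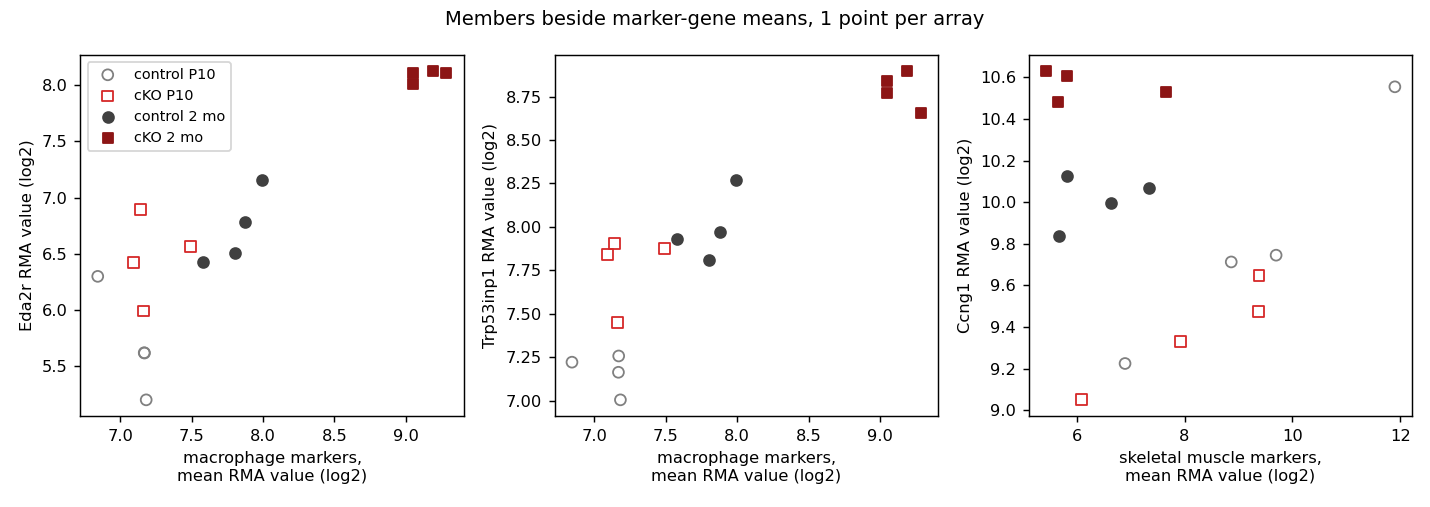
RMA values (log2) of *Eda2r* and *Trp53inp1* against the mean of 14 macrophage genes, and of *Ccng1* against the mean of 14 skeletal muscle genes, with 1 point per array. The *Becn1* cKO arrays at 2 months stand apart at macrophage means of 9.05 to 9.29, and the P10 control array with a muscle mean of 11.90 has the highest *Ccng1* value of its group, 10.55.

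Another 35 measured genes of a list of 36 further p53 targets were described beside the members. The test was passed at P10 by 6 genes as higher and 4 as lower in *Becn1* cKO nerves, with a median change of 0.03 (28.6% called, beside 12.9% of all genes). At 2 months 14 passed as higher and 5 as lower (54.3%, beside 34%), with a median of 0.25 against -0.02 over all genes. *Plk2*, a polo-like kinase of the stress response, changed most: 9.37 ± 0.28 in control and 10.7 ± 0.10 in *Becn1* cKO nerves at P10 (SD, n = 4; log2 change 1.31, adjusted p = 8.13e-06, limma), and 2.00 higher at 2 months (adjusted p = 4.86e-09). *Gadd45a*, a growth arrest and DNA damage gene, was 0.46 higher at P10 (adjusted p = 0.0432) and 1.66 higher at 2 months (adjusted p = 7.58e-07), a difference between the ages of 1.20 (adjusted p = 0.00102). *Gtse1* (0.54 and 0.95) and *Psrc1* (0.46 and 0.69), which encode microtubule-associated proteins of dividing cells, were higher at both ages. *Trim21*, a ubiquitin ligase that binds antibodies, was 0.72 higher at 2 months and read 0.00 at P10. *Rrm2b*, a ribonucleotide reductase subunit for DNA repair, was 0.61 lower at 2 months and read -0.31 (adjusted p = 0.178) at P10. The list thus held genes that moved either way, like the members themselves.

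**Figure D4:**
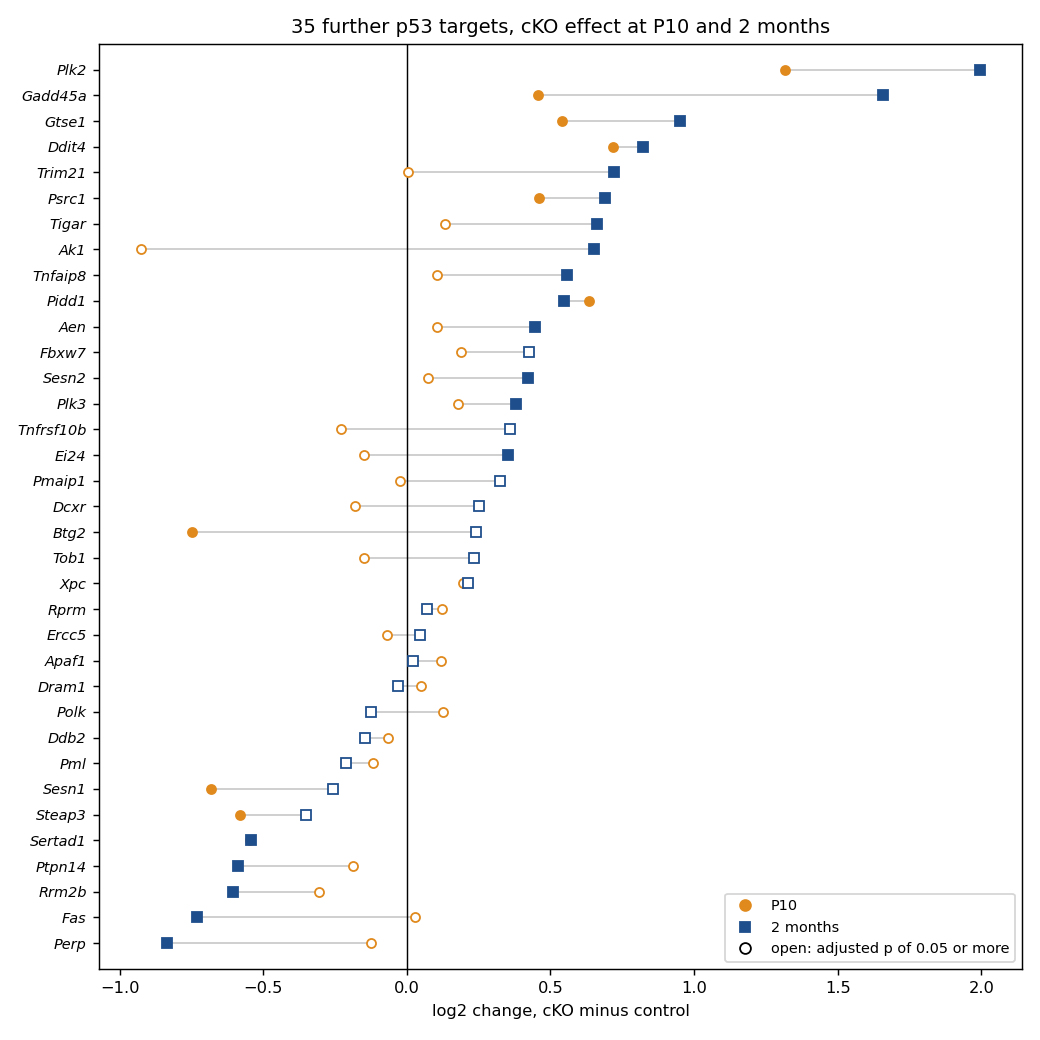
Log2 change between *Becn1* cKO and control nerves of 35 further p53 targets at P10 (circles) and 2 months (squares), with lines joining the ages and open symbols for an adjusted p of 0.05 or more (limma). *Plk2* and *Gadd45a* stand highest at 2 months, at 2.00 and 1.66, and 14 of the 35 were called higher at that age.

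Of 21 genes for p53 and its regulators, 20 were measured. In P10 nerves 4 rose and 1 fell in *Becn1* cKO relative to control (25%, beside 12.9% of all genes), and in 2-month nerves 6 rose and 6 fell (60%, beside 34%). *Mdm4*, the MDM2 relative that holds p53 inactive, was 9.76 ± 0.22 and 9.78 ± 0.29 at P10 (log2 change 0.02, adjusted p = 0.958, limma) and 10.30 ± 0.15 in control against 9.91 ± 0.17 in *Becn1* cKO nerves at 2 months (-0.38, adjusted p = 0.00977, no overlap). *Cdkn2a*, whose locus encodes both the CDK inhibitor p16 and ARF, which restrains MDM2, was 1.99 higher at 2 months (adjusted p = 4.28e-07) and read 0.16 at P10 (adjusted p = 0.769); the array value does not tell its 2 products apart. The effects differed between the ages by 1.83 (adjusted p = 0.000779). The damage kinases *Atm* (0.85 at P10 and 0.35 at 2 months) and *Chek1* (0.70 and 0.75) were higher at both ages, and *Hipk2*, a kinase of p53, was lower at both (-0.55 and -0.74). *Sirt1*, a deacetylase of p53, was 0.52 higher at P10 and read 0.14 at 2 months (adjusted p = 0.239), and the p53 relative *Trp63* was 0.92 lower at 2 months and read -0.43 (adjusted p = 0.271) at P10.

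The BCL2 family and caspases, among which *Bbc3* acts, had 17 measured genes, of which 1 passed as higher and 2 as lower at P10 (17.6%, beside 12.9% of all genes). At 2 months 6 passed as higher and 3 as lower (52.9%, beside 34% of all genes), and the medians were 0.11 and 0.24. *Xiap*, a caspase inhibitor, was lower at both ages (-0.49, adjusted p = 0.00689, and -0.82, adjusted p = 4.01e-06, limma). *Bid*, another BH3-only gene, was higher at both (0.55 and 1.14). At 2 months *Bak1*, a mitochondrial pore former, was 0.88 higher, *Casp8*, the initiator caspase of death receptors, 0.61 higher and *Cycs*, cytochrome c, 0.78 higher. The anti-apoptotic *Bcl2* read 0.47 at P10 (adjusted p = 0.077) and was 0.43 lower at 2 months (adjusted p = 0.00388), a difference between the ages of -0.90 (adjusted p = 0.00557).

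Among the regulators of G1, where p21 acts, more genes were higher than lower. Of 15 measured G1 cyclins, CDKs and other CDK inhibitors, 8 rose and 2 fell at P10 in *Becn1* cKO relative to control nerves, and at 2 months 9 rose and 3 fell (median changes 0.48 and 0.55). The shares called were 66.7% and 80%, beside 12.9% and 34% of all genes. *Cdk2*, the kinase that p21 inhibits, was 1.66 higher at P10 (adjusted p = 3.71e-07, limma) and 1.69 higher at 2 months (adjusted p = 1.30e-07). *Cdk4* was 0.85 and 1.40 higher, *Ccnd3*, its D-type cyclin partner, 1.00 and 1.20 higher, and *Ccne2*, a cyclin of CDK2, 0.68 and 1.42 higher. The other members of the p21 family of inhibitors were lower at both ages: *Cdkn1b*, encoding p27, had changes of -0.58 and -1.02, and *Cdkn1c*, encoding p57, of -0.44 and -0.50. *Cdkn2d*, an inhibitor of CDK4 and CDK6, read 0.44 at P10 (adjusted p = 0.159) and was 1.18 higher at 2 months. All 23 measured mitosis genes were higher in *Becn1* cKO nerves at both ages, with median changes of 1.09 and 1.54, and all 23 fell with age in both genotypes. *Cdkn1a* was lower in *Becn1* cKO nerves at both ages (-1.77 and -1.39), where the mitosis genes were higher, and like them it fell with age. A link between *Cdkn1a* and these genes was not tested.

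**Figure D5:**
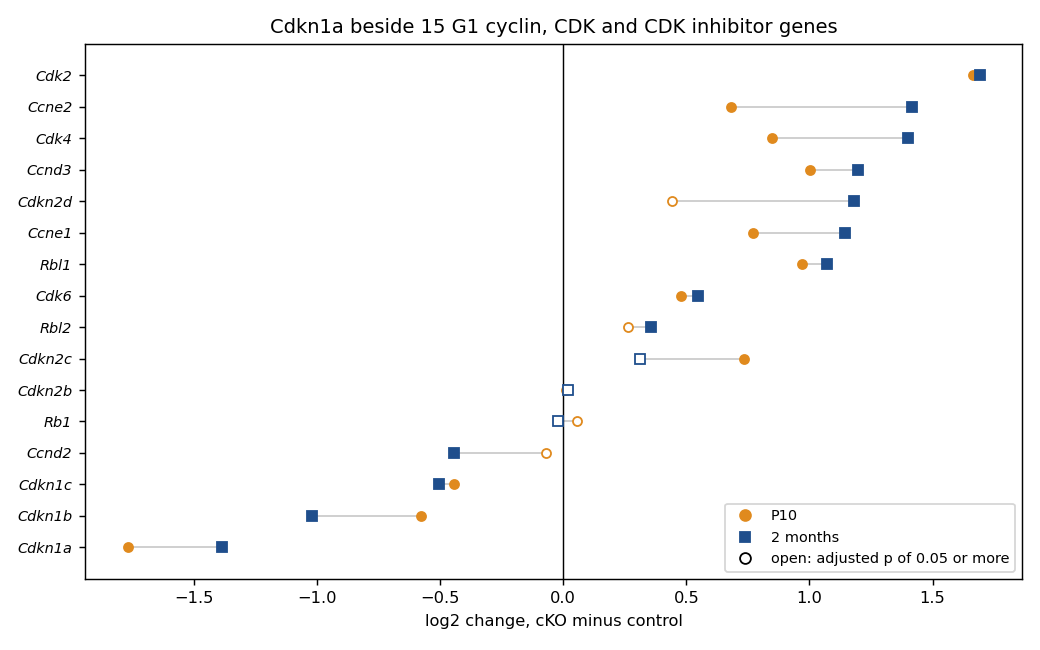
Log2 change between *Becn1* cKO and control nerves of *Cdkn1a* and 15 further G1 cyclin, CDK and CDK inhibitor genes at P10 (circles) and 2 months (squares), with open symbols for an adjusted p of 0.05 or more (limma). *Cdkn1a*, *Cdkn1b* and *Cdkn1c* lie below 0 at both ages, and *Cdk2*, *Cdk4* and *Ccnd3* above it.

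The integrated stress response, which shares some targets with p53, was read through 17 measured genes. At P10 none passed as higher and 1 as lower (5.88%, beside 12.9% of all genes). At 2 months 6 passed as higher and 2 as lower (47.1%, beside 34%), with medians of -0.02 at P10 and 0.02 at 2 months. *Slc7a11*, the cystine transporter that p53 represses, read 0.38 at P10 (adjusted p = 0.225, limma) and was 1.53 higher at 2 months (adjusted p = 4.20e-08). Its partner chain *Slc3a2* was 0.58 higher, *Asns*, asparagine synthetase, 0.87 higher, *Ddit3*, encoding CHOP, 0.81 higher and *Vldlr*, a lipoprotein receptor, 0.62 higher at 2 months. *Nupr1*, a stress-induced chromatin protein, was 1.00 lower at P10 (adjusted p = 2.06e-05) and read -0.14 at 2 months (adjusted p = 0.378). In all, 6 genes of the list (35.3%) had a higher effect at 2 months than at P10 by the test of the difference, and none a lower one. Over all genes 12.3% passed that test, 7.69% as higher and 4.59% as lower.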

How the data were processed

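Sciatic nerve RNA of 16 samples was hybridised to Mouse Clariom S arrays. The deposited values are log2 intensities that the authors summarised per transcript cluster and normalized together by RMA with Transcriptome Analysis Console (v. 4.0.2.15). The genome build behind the array annotation is not given in the sources used here. Clusters without a single gene symbol were left out (2634 of 22206), and of several clusters of a gene the one with the highest mean over the 16 arrays was kept, leaving 19505 genes. The genotypes were compared at each age with limma (v. 3.58.1, R v. 4.3.3; lmFit and eBayes with a trend) on 8 arrays. Age contrasts and the difference of the genotype effects were taken from 1 fit of 4 group means over 16 arrays. P-values were adjusted by the Benjamini-Hochberg method over all genes, with a threshold of 0.05, and no filter on dim genes was set. limma took the place of the study's SAM. A separate implementation of SAM was run as an alternative on all genes, with 70 permutations. The study's own SAM had other settings, with more permutations and a link to its most variable genes, and was not repeated. The limma comparison of the genotypes at P10 was tested on simulated data, and the other steps were not. The members and lists were chosen with earlier results of these arrays known. The text names all members, *Mdm4* and the gene most like each member. Of each companion list it names up to 6 called genes with the smallest p over both genotype comparisons. *Cdkn1c*, *Cd163* and the genes next most like *Eda2r*, *Trp53inp1*, *Ccng1* and *Zmat3* were added after their values were seen. So were the named SC markers and the differences split by Y-linked genes. Cell type lists covered Schwann cells, macrophages, T and NK cells, B and plasma cells, neutrophils, fibroblasts, endothelium and skeletal muscle. The study's methods describe its samples in general as biological replicates; the labels do not tie arrays to animals, and high and low Y-linked genes within every group show that the 4 arrays of a group were not all from a single animal. The number of arrays limits the precision. Promoter windows came from RefSeq (GRCm38.p6) and were searched in Python (v. 3.11.15).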

Additional observations from a re-analysis of the deposited data

Results flagged for a closer look

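The effect of the genotype differed between P10 and 2 months for *Ccng1* (0.99 on the log2 scale, adjusted p = 0.0143, limma), *Phlda3* (0.82, adjusted p = 0.0372) and *Zmat3* (0.73, adjusted p = 0.0278). 1 array stood far from the other 3 of its group in 2 cases: *Phlda3* in control replicate 4 at P10, at 6.65, and *Trp53inp1* in *Becn1* cKO replicate 3 at P10, at 7.45. Chance alone marks about 1 in 20 groups in this way.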

How the results depend on the processing

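*Cdkn1a*, *Eda2r*, *Trp53inp1*, *Ccng1* and *Zmat3* at 2 months, and *Cdkn1a* and *Trp53inp1* at P10, kept their direction and call under every normalization, filter, test and covariate tried and without any 1 array; a minimum log2 change of 1 removed those below it. With that minimum, 0 members were higher and 1 lower at P10, 1 was higher at 2 months, 0 passed the difference between ages, 1 rose and 1 fell with age in control nerves, and 3 rose and 0 fell in *Becn1* cKO nerves. With centring of arrays, further quantile normalization, the replicate block or the muscle mean as a term, 1 member fell with age in control nerves, *Zmat3* being lost (adjusted p = 0.0696, 0.0718, 0.0523 and 0.142, limma). With a filter on dim genes or array weights, 2 fell in *Becn1* cKO nerves, *Bbc3* being gained. Quantile normalization also lost the *Zmat3* difference between ages (adjusted p = 0.0515), and the muscle term gave *Ccng1* a rise with age in control nerves (0.73, adjusted p = 0.00151); the cause was not tested. *Bbc3* at P10 turned to 0.016 with centring, 0.0081 with quantile normalization and 0.015 with the muscle term. Over fits without 1 array, 1 to 2 members were higher and 1 to 2 lower at P10, 4 to 5 higher at 2 months, 1 to 3 passed the difference between ages, 1 to 2 fell with age in control and 1 to 2 in *Becn1* cKO nerves. Values near 0 changed sign: *Bbc3* (-0.15 to 0.059), *Mdm2* (-0.039 to 0.093) and *Zmat3* (-0.013 to 0.17) at P10, *Phlda3* at 2 months (-0.0036 to 0.24) and with age in control nerves (-0.27 to 0.011). Of 432 member values under settings other than left-out arrays, 406 kept direction and side of the threshold, 20 lost a call, 3 gained one and 3 turned. After subtraction of each gene's group mean, arrays with the same replicate number correlated between -0.15 and 0.19. The numbers were therefore not taken to pair them, and the replicate block changed no other member's call. The sex term and the muscle term were chosen after seeing the data, and the sex term changed no member's call. Over all genes SAM called 12.2% at P10 (886 rising, 1492 falling) and 39.1% at 2 months (4036 rising, 3599 falling).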
